A study of Rattus norvegicus with 61 samples.

Results

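Potassium channel genes were taken as the genes of both count tables whose NCBI Gene ID maps to a rat symbol made of Kcn, subfamily letters and a number, leaving out Kcne2 and Kcnj8. Of 94 such symbols in the reference, 85 were present in both tables, which hold 14231 striatal and 14129 cerebellar genes with 13889 shared. They fall into 19 subfamilies by the letters after Kcn, with 71 members in subfamilies that line or join the pore and 14 in auxiliary subfamilies. The rule itself uses no measured value. The libraries were bulk RNA-seq of tissue punches from male Sprague-Dawley rats that carried a subcutaneous implant from postnatal day 28 for 28 days. The implant held 4-OH-PCB52, a hydroxylated polychlorinated biphenyl, at 0% (sham), 1% (low), 5% (medium) or 10% (high), so the sham rats also carried an implant. Striatum was represented by 8 sham, 6 low, 8 medium and 8 high libraries, and cerebellum by 7, 8, 8 and 8.

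Potassium channels let potassium leave the cell and so set the resting potential, end the action potential and shape how soon the next one follows. The voltage-gated families open on depolarization, the calcium- and sodium-activated families open once firing has let those ions in, inward rectifiers hold the membrane near rest, and the tandem-pore family carries leak current. Auxiliary subunits form no pore but change how pore subunits open and reach the membrane. Striatal projection neurons are known for a very negative resting state held by inward rectifiers, and cerebellar granule and Purkinje cells for leak currents and for fast repolarization at high firing rates.

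Members of one subfamily stood on opposite sides of the comparison between the regions, and the windows before the annotated starts of 2 such pairs are shown so that they can be read beside the levels that follow. With 1 pair a subfamily, they had the widest difference among members called in every exposure group whose windows are both in the reference table. Kcnj4 and Kcng3 were higher in striatum, Kcnj6 and Kcng4 in cerebellum. Each window is the 250 bases before the start, from RefSeq on GRCr8, which is not the build of the counts. Letters run 5′ to 3′ on the strand of the gene, and capitals mark CG dinucleotides. Kcnj4 has chr7:112954548-112954797 (minus strand), Kcnj6 chr11:47778349-47778598 (minus strand), Kcng3 chr6:16803592-16803841 (plus strand) and Kcng4 chr19:64597889-64598138 (minus strand).
Kcnj4: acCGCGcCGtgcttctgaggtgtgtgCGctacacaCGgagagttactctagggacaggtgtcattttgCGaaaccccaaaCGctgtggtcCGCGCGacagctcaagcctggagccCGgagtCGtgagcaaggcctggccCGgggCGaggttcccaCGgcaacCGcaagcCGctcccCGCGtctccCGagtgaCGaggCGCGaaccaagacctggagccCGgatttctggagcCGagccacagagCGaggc
Kcnj6: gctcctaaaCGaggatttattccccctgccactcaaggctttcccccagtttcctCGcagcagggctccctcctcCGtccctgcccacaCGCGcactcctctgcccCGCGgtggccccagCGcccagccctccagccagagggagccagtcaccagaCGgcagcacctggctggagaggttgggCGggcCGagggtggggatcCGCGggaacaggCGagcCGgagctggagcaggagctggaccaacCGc
Kcng3: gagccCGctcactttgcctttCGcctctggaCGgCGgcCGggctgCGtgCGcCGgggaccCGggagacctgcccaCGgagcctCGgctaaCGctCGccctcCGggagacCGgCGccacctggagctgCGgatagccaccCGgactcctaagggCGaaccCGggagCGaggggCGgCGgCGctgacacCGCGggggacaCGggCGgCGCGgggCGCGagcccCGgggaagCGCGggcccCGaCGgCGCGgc
Kcng4: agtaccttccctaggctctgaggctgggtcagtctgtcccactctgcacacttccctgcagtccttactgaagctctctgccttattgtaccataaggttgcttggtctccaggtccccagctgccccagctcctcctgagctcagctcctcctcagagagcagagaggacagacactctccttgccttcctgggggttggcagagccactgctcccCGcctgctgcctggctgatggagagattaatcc
These windows held 26 CG dinucleotides in Kcnj4, 16 in Kcnj6, 39 in Kcng3 and 1 in Kcng4, so CG-rich windows occurred in members of both directions. A window was at hand for 58 of the 85 members, with a median of 12 CG dinucleotides against 6 over all 27457 windows. The median was 11.5 in the 18 windows of members called higher in striatum in every exposure group, and 11 in the 7 windows of members called higher in cerebellum in every group. On either strand, the GC box GGGCGG was present in 29 of 58 member windows (50% against 32.4% of all windows), TATAAA in 1 (1.72% against 13.1%) and the E-box CAGCTG in 13 (22.4% against 11.9%). The cyclic AMP response element TGACGTCA was in 0 of the 58 (1.7% of all windows). No motif of these 4 contains another, and a match is a run of letters, not a shown binding site.

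Some libraries stand apart or go against their labels. Total reads ran from 5850199 to 10944066 in striatum and from 5420458 to 10994625 in cerebellum. Libraries are named by exposure and animal number, and levels are in CPM, reads scaled to the size of the library. The mean log2 CPM over 19 measured markers of striatal projection neurons was 8.25 to 9.12 in 22 striatal libraries. It was 4.91 in sham 17, 5.39 in low 20, 5.60 in high 13 and 7.52 in high 44. That over 12 markers of cerebellar granule cells was 8.53 to 9.08 in 21 cerebellar libraries but 3.62 in low 22 and 6.55 in medium 40. It was also low in sham 48 (7.29) and, among high libraries, in 43, 28 and 59 (6.79, 7.30 and 7.20). In low 6 and medium 8, 24 and 41 it was 7.84 to 8.28. The mean over 44 ribosomal protein genes was 7.24 to 8.43 in the 21. It was 12.07, 11.12 and 10.71 in cerebellar high 43, 28 and 59, 10.16 in sham 48 and 10.02 in medium 24. In cerebellar low 6 and 22 and medium 8, 40 and 41 it was 8.60 to 8.93. In striatum it was 7.84 to 9.04 in the 22, but 9.15 in medium 8, 9.28 in sham 49, 9.35 in medium 41 and 9.87 in high 28. In all, 8 striatal and 10 cerebellar libraries lay over 1 log2 unit away from their region's median in the ribosomal list or the list of its main neurons, and results are given with and without these 18. In bulk tissue, fewer cells of a type and less RNA per cell cannot be told apart.

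In sham rats, potassium channel genes differed widely between striatum and cerebellum. Of 77 members with enough reads to test, 30 were higher in striatum and 20 in cerebellum at an adjusted p under 0.05 (edgeR), the meaning of "called" from here on. Over all 12616 genes tested 43% were called, 20.9% higher in striatum and 22.1% in cerebellum. Counts by subfamily in sham, given below, are to be set beside these shares. The median log2 fold change, striatum minus cerebellum, was 0.70 over the members and -0.09 over all genes. In low rats 27 members were higher in striatum and 19 in cerebellum (18.8 and 18.4% of all genes, 37.2% together). Medium rats had 25 and 24 (20.2 and 21.1%, 41.3% together), and high rats 30 and 20 (22.8 and 33.2%, 56% together). At an unadjusted p under 0.05 there were 53, 53, 54 and 55 members in sham, low, medium and high, beside 49, 44.7, 47.9 and 60.2% of all genes. In one direction in all 4 groups, 23 members were higher in striatum and 17 in cerebellum (14.5 and 14.6% of all genes, 29.1% together).

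The sham libraries of the regions did not overlap in 21 members higher in striatum (10.1% of all genes) and 12 higher in cerebellum (7.46%), which is 17.5% of all genes together. In sham 34 members were called with a log2 fold change of at least 2 in size, as were 11.1% of all genes. When the 18 libraries were left out, 66 of 75 members were called in sham, 37 higher in striatum and 29 in cerebellum, beside 67.3% of all genes. The 50 members called with all libraries were among the 66. The 8 members not tested were Kcna7, Kcne3, Kcnh8, Kcnj15, Kcnk18, Kcnmb1, Kcnmb3 and Kcnv2, each with sham means under 1 CPM.

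**Figure D1:**
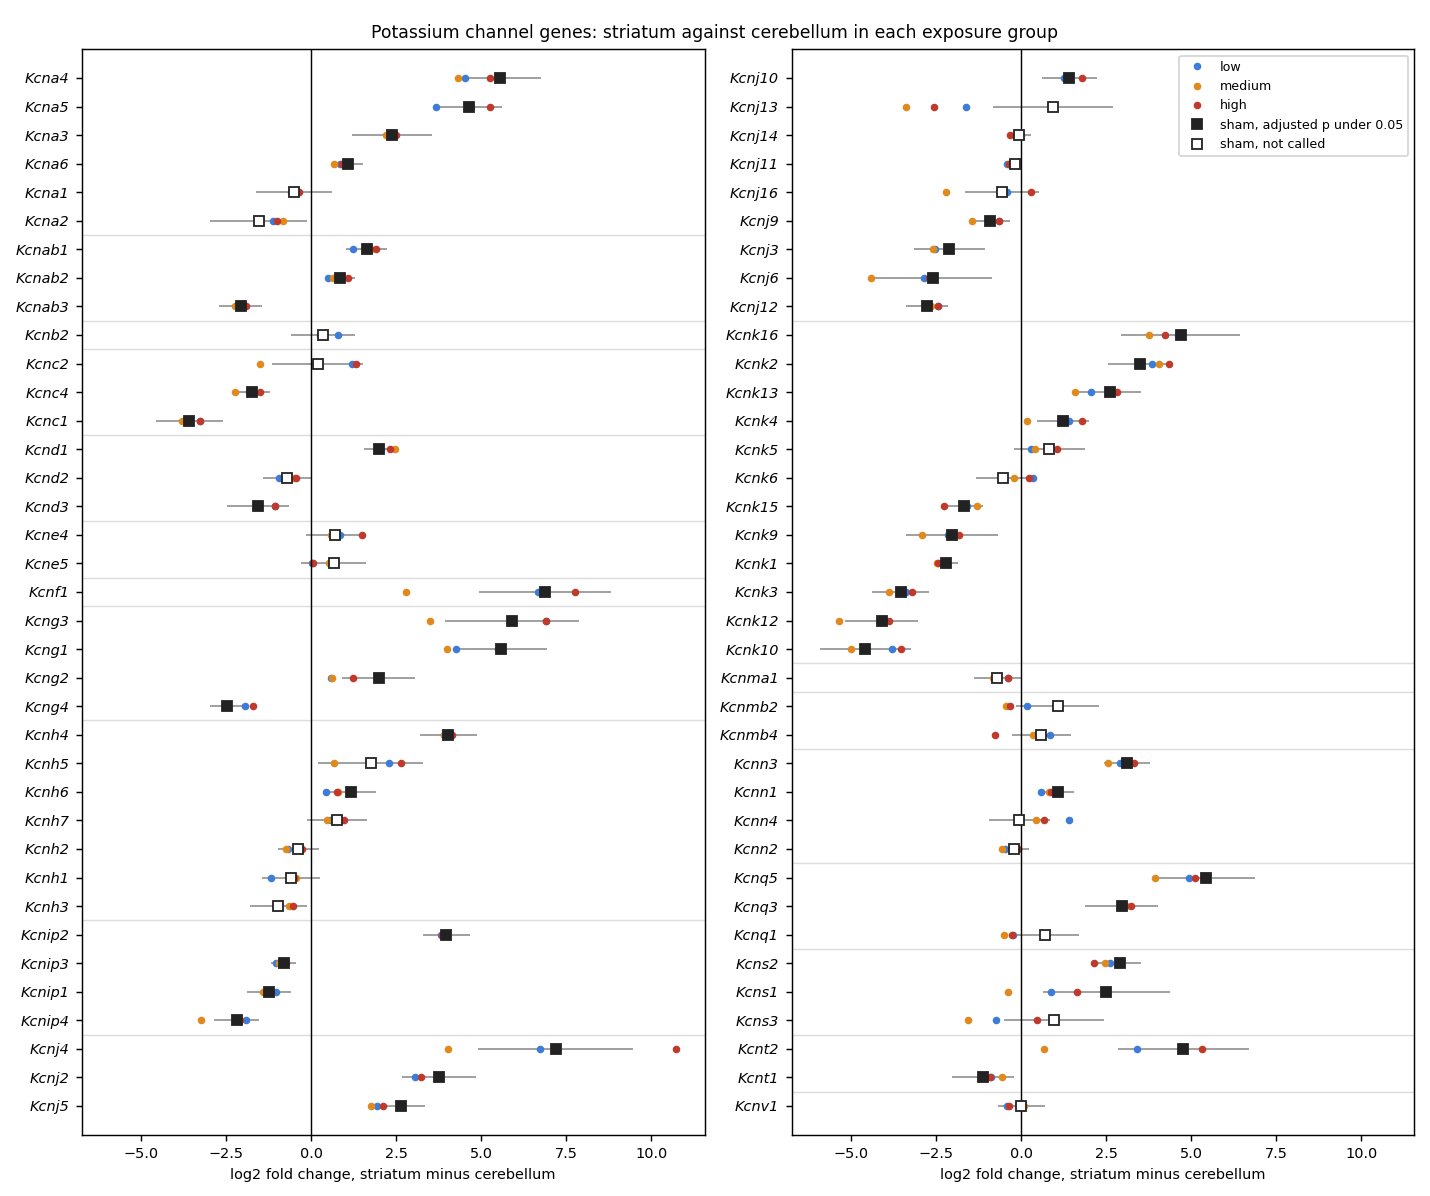
Log2 fold change, striatum minus cerebellum, of the tested members reported here, with grey lines between subfamilies. Squares are sham with a 95% interval, filled where called, and circles are low, medium and high. The ab, d, g, ip, j, k and t subfamilies hold members called in sham on both sides of 0. The medium circle of Kcnf1 (2.80) lies far below its sham square (6.88).

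The Shaker subfamily (Kcna), voltage-gated channels of axons and terminals, was higher in striatum in 4 of 6 tested members and higher in cerebellum in 0. Kcna4 (Gene ID 25469), which makes a fast inactivating current, stood at 12.2, 45.2 and 72.6 CPM (lowest, median, highest) in the 8 sham striatal libraries and at 0, 1.07 and 2.22 CPM in the 7 sham cerebellar libraries. Sham 17 was the lowest striatal library, and the regions did not overlap. The log2 fold change was 5.55 ± 0.62 (SE derived from the test statistic, adjusted p = 1.33e-10, edgeR). The delayed rectifier Kcna5 showed 4.64 ± 0.49, Kcna3, also known from T cells, 2.37 ± 0.60, and Kcna6 1.09 ± 0.23. The axonal subunits Kcna1 (-0.51 ± 0.57) and Kcna2 (-1.54 ± 0.73) were not called. Kcna2 had an adjusted p of 0.0831 with all libraries and 1.56e-05 without the 18, at a like difference (-1.55 ± 0.29).

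Shab channels (Kcnb) are slow delayed rectifiers of cell bodies, and the silent subunits that modify them were called higher in striatum more often than in cerebellum, in 6 against 1 of 9 tested members. Kcnb2 was not called (0.35 ± 0.48). Kcnf1 (298908), the silent F member, stood at 25.5, 79.6 and 95.5 CPM in sham striatum and at 0.160, 0.380 and 1.97 CPM in sham cerebellum. The lowest striatal library was sham 17, the highest cerebellar one was sham 48, and the regions did not overlap. Its log2 fold change was 6.88 ± 0.99 (adjusted p = 7.77e-08, edgeR). Among silent S members, Kcns2 was higher in striatum (2.90 ± 0.32), Kcns1 was called in sham (2.51 ± 0.96) and in no exposed group, and Kcns3 was not called, nor was the silent Kcnv1 (0.01 ± 0.35).

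The silent G members took both sides. Kcng1 was higher in striatum by 5.59 ± 0.70. Kcng3, whose upstream window is printed above, had 224.0 reads over the sham striatal libraries and 2.0 over the sham cerebellar ones, a ratio per total reads of 87.9 (exact 95% interval 24.1 to 730.0, counting error only). Kcng4 (307900), with 1 CG dinucleotide in its window, ran the other way, at 19.7, 25.9 and 51 CPM in sham striatum and 114, 154 and 213 CPM in sham cerebellum (log2 fold change -2.47 ± 0.25, adjusted p = 9.17e-12, edgeR). Every one of the 31 cerebellar libraries lay above every one of the 30 striatal libraries, the nearest being striatal high 13 at 74.6 CPM and cerebellar medium 40 at 94.5 CPM. Kcng4 and Kcnk1 were the 2 members separated in this way (1.17% of all genes), and Kcnn3 was the 1 member separated with striatum above (0.729%; both directions 1.89%). Kcng2 was called in sham (1.98 ± 0.54) with 4.80 to 15.2 CPM in 7 striatal libraries and 44.9 CPM in sham 17.

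Shaw channels (Kcnc), which shorten action potentials in rapidly firing neurons, included members higher in cerebellum. Kcnc1 (25327) stood at 147, 1023 and 1074 CPM in sham cerebellum and 35.6, 67.8 and 101 CPM in sham striatum. Cerebellar sham 48 was far below the other 6 libraries (601 to 1074 CPM) and still above every sham striatal library. The log2 fold change was -3.58 ± 0.50 (adjusted p = 3.13e-08, edgeR). Kcnc4, which adds fast inactivation, was also higher in cerebellum, at -1.74 ± 0.27. Kcnc2, known from parvalbumin interneurons, was called in no exposure group. Its striatal level was 4.32 to 147 CPM in 28 libraries and 492 and 533 CPM in low 20 and high 13.

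Shal channels (Kcnd) make the transient current of dendrites, and the Kcnip genes encode their calcium-binding partners. Kcnd1 was higher in striatum (2.01 ± 0.23) and Kcnd3 in cerebellum (-1.57 ± 0.47, not called in low rats). Kcnd2 (65180), the main dendritic member, was not called with all libraries (-0.70 ± 0.36, adjusted p = 0.117) and was called without the 18 (-0.69 ± 0.16, adjusted p = 1.77e-04, edgeR). Among the partners, Kcnip2 (56817) stood at 309.7, 789 and 992 CPM in sham striatum and 39.5, 49 and 61.6 CPM in sham cerebellum. Sham 17 was the lowest striatal library, and no sham library overlapped (log2 fold change 3.97 ± 0.35, adjusted p = 1.09e-13, edgeR). The 3 other Kcnip genes were higher in cerebellum in all 4 groups, at -2.19 ± 0.34 for Kcnip4, -1.23 ± 0.33 for Kcnip1 and -0.81 ± 0.19 for Kcnip3, which also encodes a transcriptional repressor.

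Ether-a-go-go channels (Kcnh) were not called in sham in 5 of 7 tested members. Kcnh4, a forebrain member, was called in all 4 groups, at 52.4 ± 22.4 CPM (SD, n = 8) in sham striatum against 3.21 ± 0.716 (n = 7) in sham cerebellum (4.04 ± 0.43), and Kcnh6 in sham alone (1.17 ± 0.37). Of the KCNQ subfamily, whose current closes on muscarinic receptor activation, Kcnq5 (259273) stood at 44, 124 and 159 CPM in sham striatum and 0.512, 2.53 and 4.10 CPM in sham cerebellum. All sham striatal libraries lay above all sham cerebellar ones (log2 fold change 5.44 ± 0.74, adjusted p = 1.85e-08, edgeR). Kcnq3 was higher in striatum by 2.96 ± 0.55.

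Among channels opened by calcium or sodium, Kcnma1, the large-conductance calcium-activated channel, was not called in sham (-0.70 ± 0.36) and was called without the 18 (-0.74 ± 0.18). Of the small-conductance channels that follow spikes with a hyperpolarization, Kcnn3 (54263) stood at 11.9, 19.9 and 26.5 CPM in sham striatum and 1.23, 2.28 and 3.17 CPM in sham cerebellum (log2 fold change 3.12 ± 0.35, adjusted p = 9.46e-11, edgeR). Over all 61 libraries its lowest striatal level was 11.9 CPM in sham 17 and its highest cerebellar level 9.28 CPM in medium 40. Kcnn1 was higher in striatum (1.09 ± 0.24, not called in low rats), and Kcnn2 (-0.20 ± 0.22) was not called in sham. The other Kcnn gene, Kcnn4, was not called in sham either. Of the sodium-activated pair, Kcnt2 was higher in striatum (4.77 ± 0.98) and not called in medium rats (0.67 ± 0.73). Its cerebellar level in medium rats was 15.0 CPM in medium 40 and 0 to 0.285 CPM in the other libraries. In sham striatum it was 23.7 CPM in sham 17 and 2.09 to 4.16 CPM in the others. Kcnt1 was called in sham at an adjusted p of 0.0456 (-1.12 ± 0.46, edgeR), in no exposed group, and not with 10 of the 15 sham libraries left out in turn. Paired by animal number it was at -0.88 and not called.

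Strong inward rectifiers (Kcnj), which hold neurons at rest, did not share a direction. Kcnj4 (116649) stood at 29.7, 157 and 196 CPM in sham striatum and at 0, 0.307 and 4.68 CPM in sham cerebellum. The lowest striatal library was sham 17, the highest cerebellar one sham 48, and they did not overlap. The log2 fold change was 7.19 ± 1.16 (adjusted p = 8.38e-07, edgeR), its size resting on few cerebellar reads. Kcnj2 was also higher in striatum (3.76 ± 0.55), whereas Kcnj12 was higher in cerebellum (-2.76 ± 0.32, 22.3 ± 7.94 against 151 ± 31.7 CPM).

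Inward rectifiers opened by G proteins quiet neurons after GABA-B receptor activation. Of these, Kcnj6 (-2.60 ± 0.88), Kcnj3 (-2.11 ± 0.53) and Kcnj9 (-0.93 ± 0.31) were higher in cerebellum and Kcnj5 in striatum (2.65 ± 0.36). Kcnj9 was not called in low or high rats. Kcnj6 (25743) was 4.31 to 18.5 CPM in 7 sham striatal libraries and 156 CPM in sham 17, inside the sham cerebellar range of 14.9 to 258 CPM. Its log2 fold change without sham 17 was -4.05. The astrocyte channel Kcnj10 was higher in striatum (1.42 ± 0.41). Kcnj16, which assembles with it, was called in medium rats (-2.20 ± 0.57) and stood at 0.29 ± 0.54 in high rats. The striatal level of Kcnj16 in high rats was 70.8 CPM in high 13 and 2.07 to 13.2 CPM in the other libraries. Kcnj11, the pore of the ATP-sensitive channel, was at -0.18 ± 0.11 in sham, not called, and at -0.43 ± 0.11, -0.35 ± 0.10 and -0.36 ± 0.10 in low, medium and high, called in each. Of these, the difference from sham was tested for high alone, in the interaction below.

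Tandem-pore leak channels (Kcnk) were higher in cerebellum in 6 of 12 tested members and higher in striatum in 4. Kcnk10 (65272), opened by stretch and lipids, stood at 4.07, 61.8 and 68.8 CPM in sham cerebellum and 0.924, 1.87 and 3.74 CPM in sham striatum. Sham 48 was the lowest cerebellar library, just above the highest striatal one (log2 fold change -4.58 ± 0.68, adjusted p = 1.46e-07, edgeR). Its close relative Kcnk2 ran the other way (3.49 ± 0.48, 161 ± 56.5 against 14.2 ± 17.6 CPM), with an overlap of striatal sham 17 (27.2 CPM) and cerebellar sham 48 (53.9 CPM). The acid-sensitive channels Kcnk3 (-3.54 ± 0.42) and Kcnk9 (-2.03 ± 0.69), known from granule cells, were higher in cerebellum, as were Kcnk12 (-4.10 ± 0.55) and Kcnk15 (-1.69 ± 0.28), which give little current alone. Kcnk1 (59324), a weak leak channel, stood at 52.5, 61.3 and 100.3 CPM in sham striatum and 282, 299 and 387 CPM in sham cerebellum (log2 fold change -2.21 ± 0.18, adjusted p = 1.32e-14, edgeR). Kcnk13 (2.63 ± 0.47), Kcnk16, a channel of pancreatic islets at 3.84 ± 3.95 CPM here (4.70 ± 0.89), and Kcnk4 (1.24 ± 0.39) were higher in striatum. Kcnk4 was not called in medium rats (0.16 ± 0.37), where cerebellar medium 40 held 57.6 CPM.

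**Figure D2:**
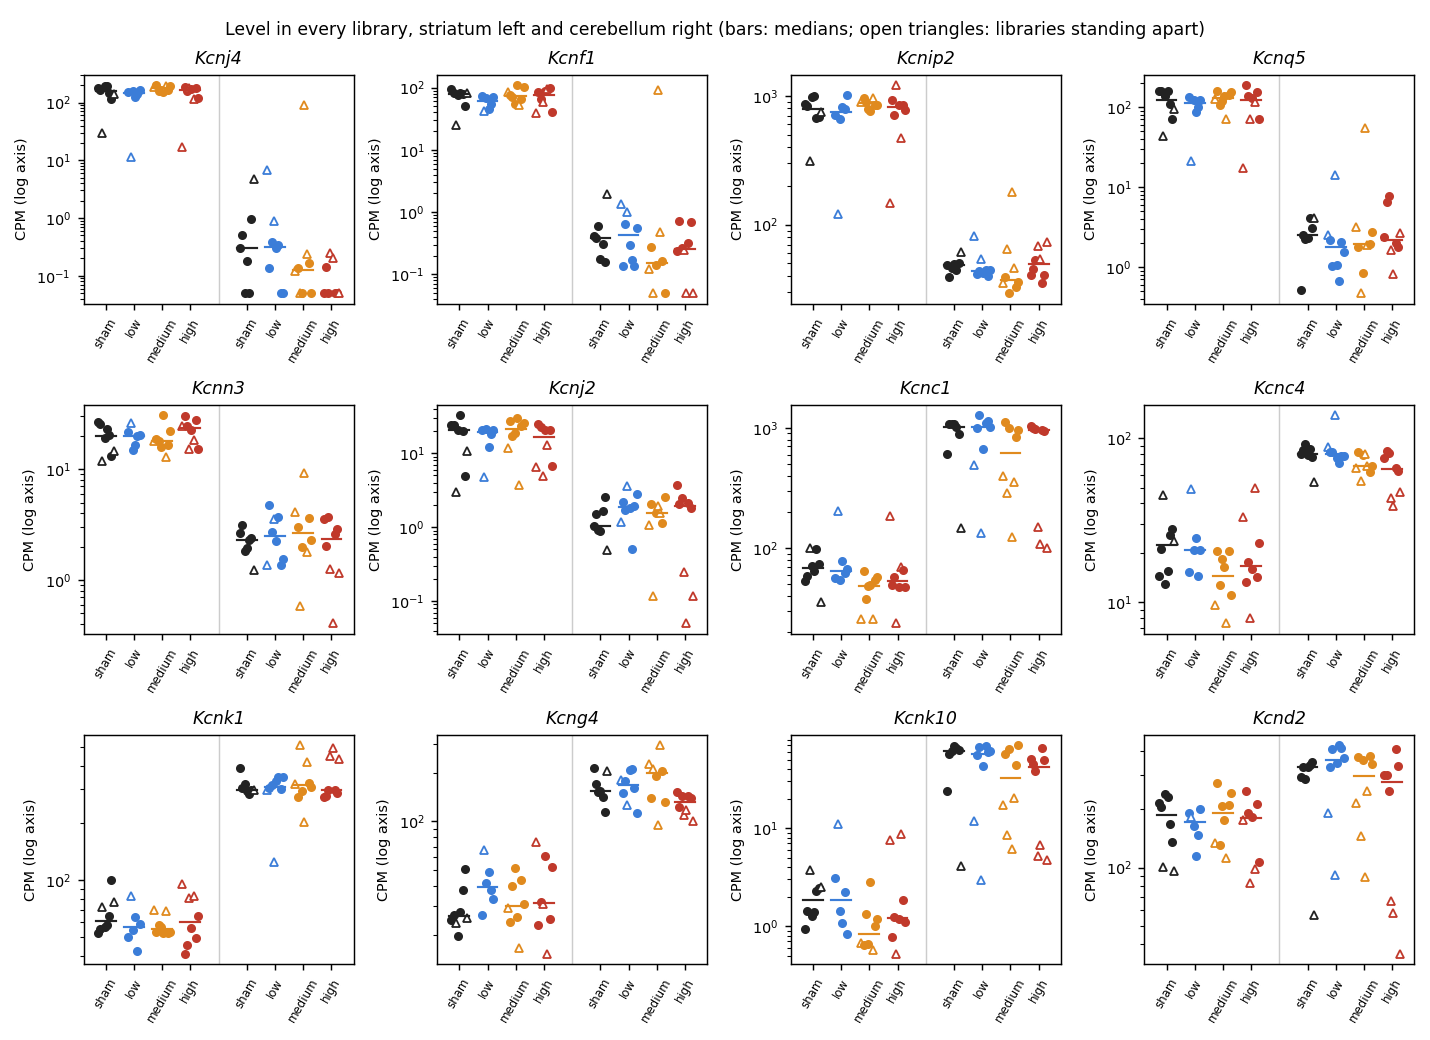
CPM (log axis) of 12 members in every library, striatum left and cerebellum right in each panel, with bars at group medians, zeros at the lower edge and open triangles for the 18 libraries standing apart. Cerebellar medium 40 lies near striatal levels in Kcnj4 (89.9 CPM) and Kcnf1 (90.3 CPM), and striatal sham 17, low 20 and high 13 lie low in Kcnj4 (29.7, 11.5 and 16.7 CPM).

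Of the remaining auxiliary subunits, those of Shaker channels split. Kcnab1 (1.63 ± 0.30) and Kcnab2 (0.86 ± 0.22, not called in low rats) were higher in striatum and Kcnab3 in cerebellum (-2.08 ± 0.32). Neither the tested Kcne genes, small single-span partners, nor the tested Kcnmb genes, partners of Kcnma1, were called in sham. By role, 27 of 66 tested members of pore-forming subfamilies were higher in striatum in sham and 16 in cerebellum, and of 11 auxiliary ones 3 and 4. Over all genes, 20.9% were higher in striatum and 22.1% in cerebellum. Among 20 tested partners of potassium channels outside the Kcn names, 6 were higher in striatum and 6 in cerebellum. Akap5, a kinase anchor, was at 5.04 ± 0.64, Abcc8, the sulfonylurea receptor of the ATP-sensitive channel, at -2.45 ± 0.42 and Dpp10, a Kcnd partner, at -1.30 ± 0.30. Of 12 tested genes for other channels, transporters and pumps of the resting and firing potential, 1 was higher in striatum and 3 in cerebellum. The same shares of all genes stand beside both lists.

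Members that lie side by side differed in call or direction in several places. In the RefSeq gene order on GRCr8, 8 pairs of members had no protein-coding gene between them. Kcnj10 (1.42) and its neighbour Kcnj9 (-0.93) were called in opposite directions in sham, though Kcnj9 was not called in low or high rats. Kcnj2 (3.76), Kcna3 (2.37) and Kcnk16 (4.70) were called higher in striatum beside Kcnj16 (-0.57), Kcna2 (-1.54) and Kcnk5 (0.83), which were not called. Kcna1 (-0.51), not called, lies between Kcna5 (4.64) and Kcna6 (1.09), both higher in striatum.

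Within the striatum, some members moved with the projection neuron list. In the 22 libraries not standing apart, Kcnj4 was 114 to 202 CPM, Kcnip2 659 to 1017 CPM and Kcnh4 43.6 to 81.2 CPM. In sham 17, low 20 and high 13, Kcnj4 was 29.7, 11.5 and 16.7 CPM, Kcnip2 309.7, 121 and 147 CPM and Kcnh4 7.47, 5.76 and 7.35 CPM, below all 22 in each gene. The mean over the septum, pallidum and thalamus list was 4.83, 5.84 and 5.66 in them against 1.30 to 4.96 in the 22. That over the choroid plexus list was 7.62 in sham 17 against -0.16 to 3.70, and Kcnj13, a choroid plexus channel and itself on that list, was 101 CPM in sham 17 and 0 to 4.20 CPM in the other 29 libraries. The mean over the cortical excitatory neuron list was 5.37 in high 44, against 1.75 to 4.13 in the 22. The part of these lists in the members' levels was not tested.

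**Figure D3:**
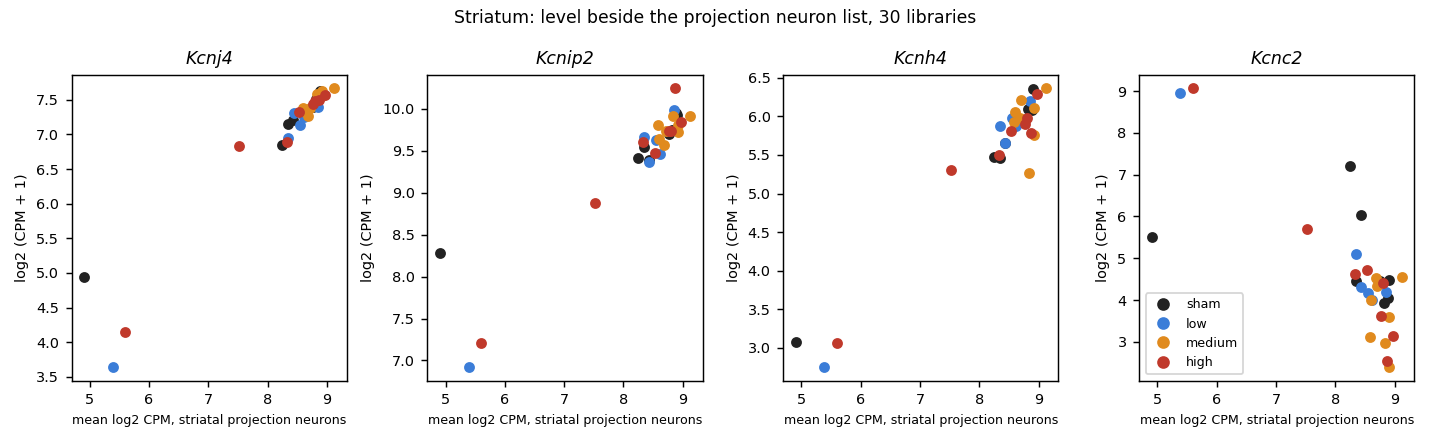
Level of 4 members, log2 (CPM + 1), against the mean log2 CPM of the projection neuron list in the 30 striatal libraries, coloured by exposure. Sham 17, low 20 and high 13 stand at the left, low in Kcnj4, Kcnip2 and Kcnh4, and low 20 and high 13 are the highest in Kcnc2 (492 and 533 CPM).

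Within the cerebellum, some members were low in libraries that stood apart in the granule cell list, the ribosomal protein list or both. In the 21 libraries not standing apart, Kcnc1 was 601 to 1276 CPM, Kcnj6 52.1 to 292 CPM and Kcnk10 23.6 to 69.8 CPM. In high 43, 28 and 59, Kcnc1 was 109, 150.4 and 101 CPM, Kcnj6 22.7, 22.4 and 15.6 CPM and Kcnk10 6.69, 5.23 and 4.74 CPM, below all 21 in each gene. These 3 libraries were above the 21 in the ribosomal list and below them in the granule cell list (6.79, 7.30 and 7.20 against 8.53 to 9.08). Low 22 was also below the 21 in these genes, with Kcnc1 at 133 CPM, Kcnj6 at 10.7 CPM and Kcnk10 at 2.94 CPM. Its granule cell mean was 3.62 and its ribosomal mean 8.92, against 7.24 to 8.43 in the 21. Unexposed sham 48 was below the 21 too, with Kcnc1 at 147 CPM, Kcnj6 at 14.9 CPM and Kcnk10 at 4.07 CPM. So were low 6 and medium 8, 24, 40 and 41 in each gene. The part of either list in the members' levels was not tested. Kcnmb4 (66016), a subunit that slows Kcnma1 channels in neurons, was 17.6 to 43.2 CPM in the 21. It was 349.9, 179 and 158 CPM in high 43, 28 and 59. Libraries of other groups were also above the 21, with 91.7 CPM in sham 48, 91.4 in medium 24 and 92.9 in medium 40. In low 6, low 22 and medium 8 and 41 it was 13.4 to 43.7 CPM. Cerebellar medium 40 held 89.9 CPM of Kcnj4, 90.3 of Kcnf1, 54.2 of Kcnq5 and 21.2 of Kcng1, with a mean of 5.56 over the cortical excitatory neuron list against 2.84 to 3.44 in the 21. The fold changes between regions in medium rats include this library (Kcnf1 2.80 ± 0.73).

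**Figure D4:**
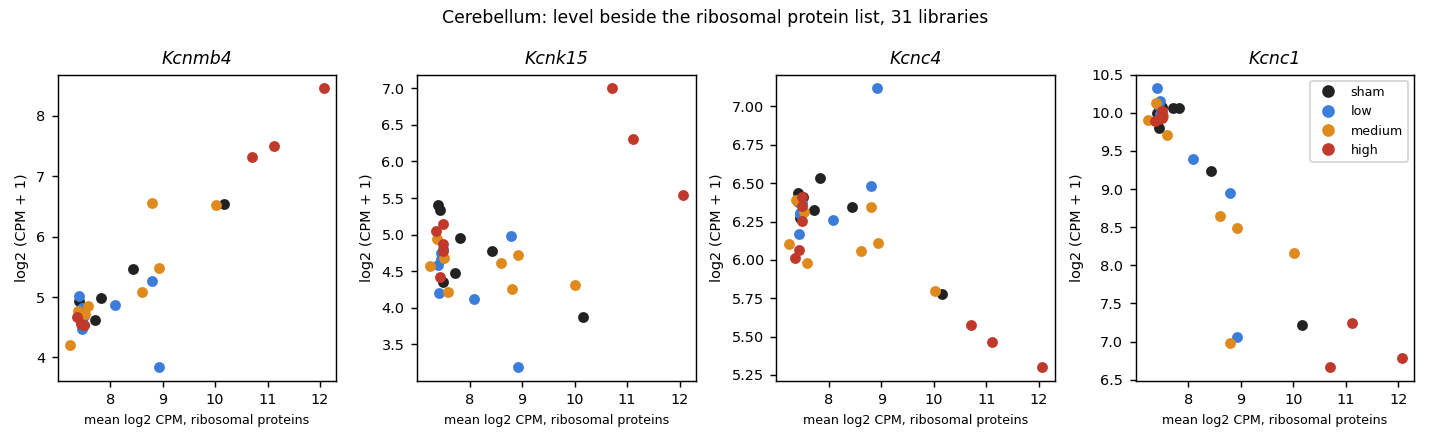
Level of 4 members, log2 (CPM + 1), against the mean log2 CPM of the ribosomal protein list in the 31 cerebellar libraries, coloured by exposure. High 43, 28 and 59 stand at the right, with the highest Kcnmb4 (349.9, 179 and 158 CPM) and Kcnk15 (45.6, 78.3 and 127 CPM) and the lowest Kcnc4 (38.5, 43.1 and 46.7 CPM).

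Each loading was compared with sham to ask which genes differ after exposure, and no potassium channel gene was called. In the striatum 0 of 74 tested members were called at the low, medium and high loadings (edgeR), as were 0% of all 12267 genes. At an unadjusted p under 0.05 there were 2, 5 and 0 members, beside 3.84, 3.69 and 1.15% of all genes. In the cerebellum 0 of 63 tested members were called at each loading, as were 0% of 11946 genes, with 0, 3 and 2 members at an unadjusted p under 0.05 (1.52, 1.42 and 11.7% of all genes). DESeq2 and limma-voom also called 0 members in these 6 comparisons, with 0 to 4 and 3 to 5 members at an unadjusted p under 0.05. Sham libraries are common to the loadings within a region. The median log2 fold change over the members was 0.01, -0.03 and 0.02 in the striatum and 0.11, 0.03 and -0.13 in the cerebellum.

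Intervals give the sizes that the data leave room for. At the high loading in striatum, Kcnip2 was at -0.02 ± 0.30 (95% interval -0.61 to 0.58) and Kcnj4 at -0.04 ± 0.38 (-0.78 to 0.69). In cerebellum, Kcnc1 was at -0.34 ± 0.53 (-1.38 to 0.70) and Kcnk1 at 0.18 ± 0.20 (-0.21 to 0.57). The Kcnc1 interval holds a fall of 1 log2 unit and that of Kcnk1 does not. The median SE of a member was 0.32 to 0.35 in striatum and 0.42 to 0.43 in cerebellum.

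**Figure D5:**
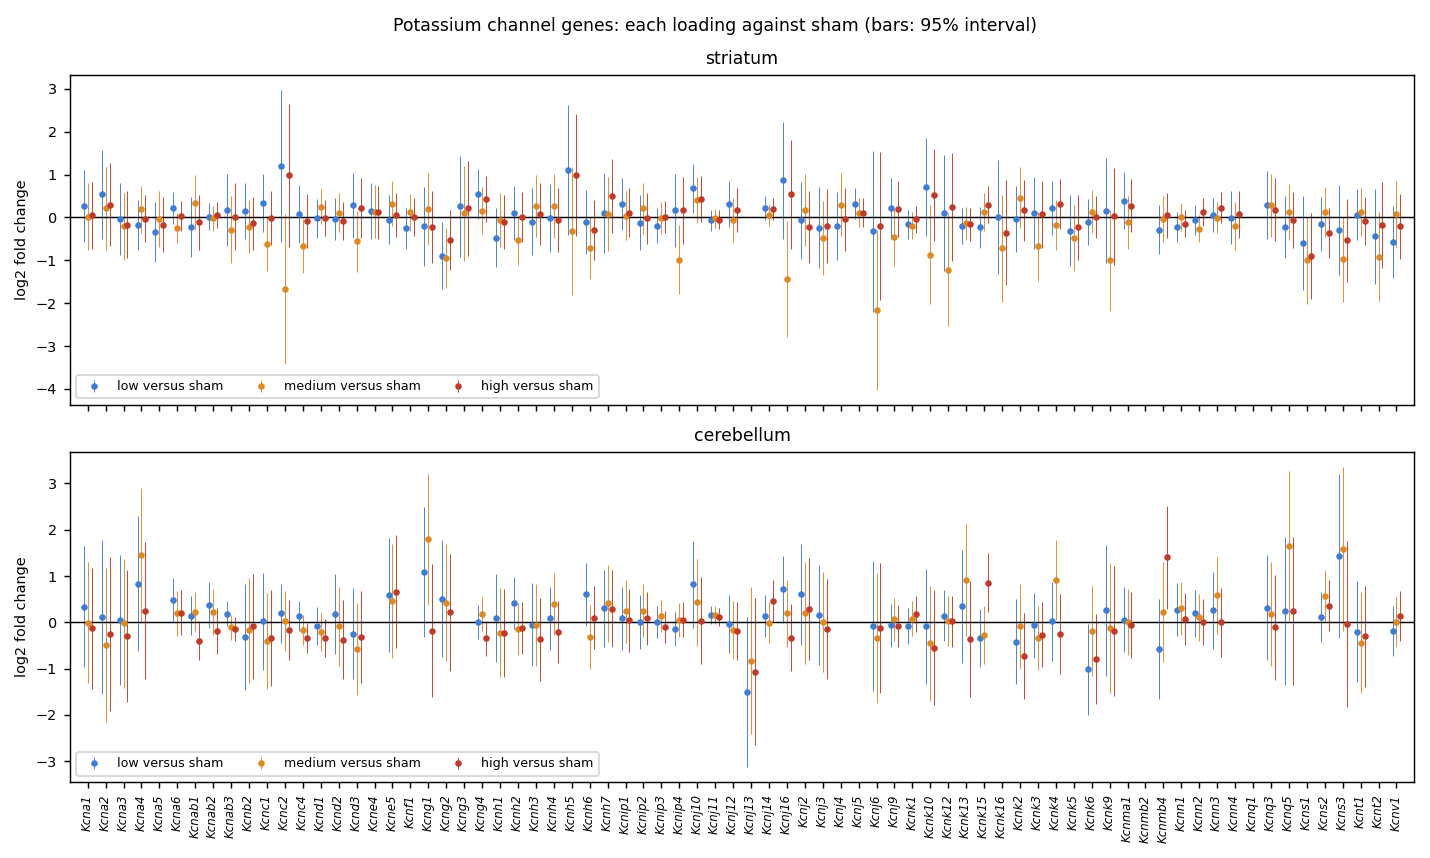
Log2 fold change of each loading against sham, with 95% intervals, for members tested in striatum (upper) and cerebellum (lower) and reported here. No member was called, and wide departures such as Kcnj6 at the medium loading in striatum (-2.16 ± 0.95) and Kcnmb4 at the high loading in cerebellum (1.41 ± 0.57) carry wide intervals.

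In the striatum, Kcnj10 had the smallest p among members above sham at each loading. Kcnj10 (29718) stood at 46.2, 78.1 and 113 CPM in sham, 108, 119.6 and 135 CPM in low, 16.6, 111 and 144 CPM in medium and 38.1, 100.4 and 135 CPM in high. The low libraries lay above all sham libraries but sham 34, and medium 41 and high 28 were the lowest of all. Both medium 41 and high 28 stand apart on the ribosomal list (9.35 and 9.87). The log2 fold change was 0.68 ± 0.29 at the low loading (unadjusted p = 0.0271, adjusted p = 0.905, edgeR), 0.40 ± 0.27 at medium and 0.42 ± 0.27 at high. With the 8 striatal libraries left out it was 0.54 ± 0.16, 0.57 ± 0.16 and 0.40 ± 0.16 (adjusted p = 0.517, 0.771 and 1.00, edgeR).

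Kcng2, a silent subunit, had the smallest p among members below sham at the low (-0.89 ± 0.39) and medium loadings (-0.95 ± 0.36). It stood at 4.80, 6.76 and 44.9 CPM in sham, 4.65, 6.37 and 10.1 CPM in low and 4.21, 6.93 and 8.49 CPM in medium. Sham 17, 48 and 49 lay above every low and medium library, and the other 5 sham libraries lay among them. At the medium loading Kcnip4 was at -0.99 ± 0.41 and Kcnj6 at -2.16 ± 0.95. The remaining members of the 5, chosen after their values were seen, were Kcnc4 (-0.67 ± 0.32) and Kcnj16 (-1.43 ± 0.69). With the 8 libraries left out, Kcng2 was at -0.24 ± 0.29, Kcnj6 at -0.20 ± 0.45, Kcnj16 at -1.31 ± 0.48 and Kcnip4 at -1.09 ± 0.26 (adjusted p = 0.771, edgeR). Sham 17 held the highest sham levels of Kcng2, Kcnj6, Kcnj16 and Kcnc4, and sham 48, which does not stand apart, that of Kcnip4. Over any exposure 0 members were called (edgeR) beside 0.0245% of genes, with 4 at an unadjusted p under 0.05 (2.02% of genes). In the striatal trend with percent loading 0 were called (0% of genes) and 0 had an unadjusted p under 0.05 (0.97% of genes; DESeq2 0 and limma-voom 3 members).

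In the cerebellum, the low loading had Kcnj16 (0.72 ± 0.37) and Kcnk6, a leak channel (-1.02 ± 0.50), with the smallest p in each direction. Kcnj16 was 10.8 to 28.5 CPM in 7 low libraries and 83.5 CPM in low 22, and Kcnk6 was 2.03 to 4.63 CPM in 6 sham libraries and 21.6 CPM in sham 48. The Kcnj16 value was 0.10 without low 22, and the Kcnk6 value -0.23 without sham 48. At the medium loading Kcng1 (1.79 ± 0.72), Kcns2 (0.58 ± 0.28) and Kcnk4 (0.91 ± 0.44) had an unadjusted p under 0.05 and an adjusted p of 0.999 (edgeR). Kcng1 was 0.587 to 2.57 CPM in 7 medium libraries and 21.2 CPM in medium 40. Kcnk4 was 3.94 to 11.9 CPM in the same 7 and 57.6 CPM in medium 40. With the 10 cerebellar libraries left out these were at 0.47 ± 0.38, 0.45 ± 0.23 and 0.17 ± 0.26.

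At the high loading, Kcnk15 and Kcnmb4 had the smallest p in the cerebellum. Kcnmb4 stood at 23, 29.5 and 91.7 CPM in sham and 22.1, 23.5 and 349.9 CPM in high. The high group held 3 libraries at 158, 179 and 349.9 CPM and 5 within 22.1 to 24.4 CPM, and the groups overlapped. The log2 fold change was 1.41 ± 0.57 (unadjusted p = 0.0188, adjusted p = 0.417, edgeR). Kcnk15 (156873) stood at 13.7, 26.4 and 41.5 CPM in sham and 20.4, 33.2 and 127 CPM in high (0.86 ± 0.32, adjusted p = 0.417, edgeR). The 3 highest libraries of both genes were high 28, 43 and 59, which also had the highest ribosomal list. With the 10 libraries left out, Kcnmb4 was at -0.36 ± 0.15 and Kcnk15 at -0.05 ± 0.19 (adjusted p = 0.590 and 0.938, edgeR).

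The linear trend with loading in the cerebellum called 0 of 63 members and 0% of all genes (edgeR), with 5 members and 20.6% of genes at an unadjusted p under 0.05. In log2 units per percent loading, Kcnmb4 was at 0.166 ± 0.046 (adjusted p = 0.0755, edgeR), Kcnk15 at 0.098 ± 0.028 (0.0755) and Kcnc4 at -0.043 ± 0.015 (0.0877). Kcnc4 (684516) stood at 53.9, 80.2 and 91.9 CPM in sham and 38.5, 64.7 and 84 CPM in high, where high 28, 43 and 59 were the 3 lowest and the groups overlapped. DESeq2 called these 3 members (adjusted p = 0.0328, 0.0331 and 0.0461) and 7.03% of all genes, and limma-voom with quality weights called 0, with 8 at an unadjusted p under 0.05. With the 10 libraries left out, the slopes were -0.032 ± 0.013, 0.007 ± 0.018 and -0.013 ± 0.008, and 0 members were called. Over any exposure 0 members and 0% of genes were called (edgeR), with 7 members and 10.3% of genes at an unadjusted p under 0.05.

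Whether the change at the high loading differed between the regions was tested as an interaction. It called 0 of 77 members (edgeR), beside 0.00793% of all genes, with 3 members at an unadjusted p under 0.05 (8.05% of genes; DESeq2 called 0, with 3). These were Kcnj13 (-3.50 ± 1.36, striatum minus cerebellum), Kcng4 (0.76 ± 0.34) and Kcnmb4 (-1.36 ± 0.62), each with an adjusted p of 0.591 (edgeR). Without striatal sham 17 the Kcnj13 value was 0.45. No tested partner outside the Kcn names and no other channel, transporter or pump of the fixed list was called in the interaction, the loading comparisons or the trends.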

How the data were processed

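Striatal and cerebellar punches gave 61 RNA-seq libraries of 5420458 to 10994625 reads. The deposited values are whole-number read counts per gene, 1 table a region. The submitters' processing notes name FastQC and HISAT2 with rn6; which tool counted reads, its strand setting and its annotation: not given in the sources used here, so antisense and overlapping genes cannot be told apart. Per the labels' protocols, mRNA came by poly(A) capture or rRNA removal, with no statement of which. Symbols came from RefSeq Gene IDs (14163 and 14063 matched). Counts were scaled by TMM and filtered by filterByExpr in edgeR 4.0.16 (R 4.3.3, limma 3.58.1, DESeq2 1.42.0). Regions were compared in 1 fit of 8 groups, loadings in 1 fit a region, by robust quasi-likelihood tests, two-sided, with Benjamini-Hochberg adjustment over all genes; the code was tested on simulated counts. CPM share 1 TMM scale over both regions. The SE of a log2 fold change was derived from the test, as its size over the square root of the F statistic. Intervals are 1.96 SE, so SE and intervals are approximate, above all where reads are few. The series text states 6 a group, whereas the labels give 6 to 8 libraries a group, all used here. Nothing in the labels ties a library to a separate rat beyond the number in its title, so p-values measure the spread between these libraries. Equal numbers in both regions were taken as one rat (29 pairs; deviations from group means correlated at a median of 0.345, range -0.24 to 0.818). Members named are the widest called in each direction of a subfamily, those called in all 4 groups with at least 2 log2 units, the 3 smallest p in each direction of each exposure comparison, the 3 smallest of the interaction, and a fixed list; others named, and single libraries, were chosen after their values were seen. Members and lists were chosen with earlier results of these data known. Protein stretches planned for display were not used here. Some genes that enter the counts and tests are not reported here by name.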

Additional observations from a re-analysis of the deposited data

Results flagged for a closer look

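Among the members named for exposure, 104 combinations of member and group were searched for a single library farther from the others than Dixon's 95% limit allows, on log2 (CPM + 1). One was found in 29 (27.9%), over 19 members, where chance gives about 1 in 20 of groups without libraries that stand apart. The share over all genes was not computed, 18 libraries stand apart on whole marker lists, and nothing particular to these members is read from the count. Values follow in CPM, each against the range of the other libraries of its group. Their cause was not tested.

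In striatal low 20, these were Kcnh1 (low, 6.33 against 26.6 to 47.2), Kcnh6 (high, 7.87 against 2.90 to 4.26) and Kcnv1 (low, 2.25 against 20.9 to 48.9). In striatal sham 48, these were Kcnh1 (low, 20.6 against 36.3 to 58.1) and Kcnip4 (high, 43.6 against 11.1 to 19.2). In striatal high 28, this was Kcnj10 (low, 38.1 against 99.4 to 135). In striatal medium 41, this was Kcnj10 (low, 16.6 against 61.5 to 144). In striatal sham 17, these were Kcnj13 (high, 101 against 0 to 4.20), Kcnj6 (high, 156 against 4.31 to 18.5), Kcnk15 (low, 5.32 against 8.11 to 9.57), Kcnk2 (low, 27.2 against 152 to 208) and Kcnv1 (low, 15.6 against 35.3 to 64.8). In striatal high 44, this was Kcns1 (high, 7.11 against 0.518 to 1.67).

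In cerebellar low 22, these were Kcna6 (high, 260.0 against 70.4 to 94.7), Kcnc4 (high, 138 against 70.8 to 88.3), Kcnh6 (high, 9.45 against 1.54 to 3.68), Kcnj14 (high, 52.2 against 23.1 to 33.7) and Kcnj16 (high, 83.5 against 10.8 to 28.5). In cerebellar sham 48, these were Kcna6 (low, 37.7 against 66.3 to 101), Kcnc4 (low, 53.9 against 76.2 to 91.9), Kcnj13 (high, 38.5 against 0.889 to 4.25) and Kcnk6 (high, 21.6 against 2.03 to 4.63). In cerebellar low 6, this was Kcnab3 (high, 115 against 59 to 76.8). In cerebellar medium 40, these were Kcnab3 (low, 39.9 against 55.7 to 70.1), Kcng1 (high, 21.2 against 0.587 to 2.57), Kcnj16 (low, 4.20 against 12.3 to 27.9) and Kcnk4 (high, 57.6 against 3.94 to 11.9). In cerebellar medium 24, this was Kcnd1 (low, 4.70 against 6.28 to 7.21). In cerebellar low 35, this was Kcnj13 (high, 8.83 against 0.839 to 2.6).

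Of these libraries, striatal sham 48 and cerebellar low 35 are not among the 18 that stand apart on the ribosomal or neuron lists.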

How the results depend on the processing

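Members called between regions in sham numbered 49 with RLE factors, 50 with DESeq2, 51 with no filter, 50 with a filter at a mean CPM of 1 and 52 with sham libraries alone, and 48 to 55 with single sham libraries left out. Paired by animal number (replicate block), 50 were called in sham, 49 of them shared with the unpaired fit, 45 in low, medium and high together and 0 in the interaction; the block ended the call of Kcnt1. In low, medium and high together 41 were called, 41 with each sham library left out in turn, and 65 without the 18 libraries. Exposure comparisons kept 0 called members under the alternatives run, single libraries left out included, except these. Any exposure in striatum had 1 with no filter and 1 with the CPM filter (Kcnj13), and in cerebellum 1 with DESeq2 (Kcnk15). The cerebellar trend had 3 with DESeq2 and 0 to 3 with single libraries left out: 3 without high 13, 14 or 27 or sham 48, and 2 without high 44 or 58.

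Of 3038 values of named members under alternatives, 24 reversed, 17 lost and 32 gained a call. With limma-voom the reversed values were Kcng2 in high striatum (0.097), Kcnj16 (-0.063) and Kcnj13 (0.108) in low cerebellum, Kcnk15 (-0.017), Kcnmb4 (-0.22) and Kcnj14 (-0.17) in high cerebellum, and the cerebellar trends of Kcnmb4 (-0.021) and Kcnj14 (-0.016). Without the 18 libraries they were Kcng2 in high striatum (0.21), Kcnj16 (-0.14), Kcna6 (-0.021) and Kcnj13 (0.73) in low cerebellum, Kcnk15 (-0.052), Kcnmb4 (-0.36) and Kcnj14 (-0.072) in high cerebellum, the cerebellar trends of Kcnmb4 (-0.032) and Kcnj14 (-0.0092), and the interaction of Kcnmb4 (0.32). With single libraries left out, ranges crossed 0 for Kcnj13 in the interaction (-5.46 to 0.45, the last without striatal sham 17), Kcng2 in high striatum (-0.69 to 0.13, sham 17), the striatal trend of Kcnh6 (-0.057 to 0.00094, sham 17), Kcnj13 in low cerebellum (-2.09 to 0.44, sham 48) and Kcnk4 in medium cerebellum (-0.059, medium 40, to 1.05). Between regions, Kcnj16 was 0.29 in the high libraries, which include striatal high 13 at 70.8 CPM. The cause was not tested.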
